A study of Mus musculus with 27 samples.

Results

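The genes described here are 10 of the mouse unfolded protein response and of the folding machinery of the endoplasmic reticulum (ER): Xbp1, Hspa5, Hsp90b1, Edem1, Dnajb9, Herpud1, Sdf2l1, Pdia4, Creld2 and Manf. They were picked from the count table by matching each Ensembl ID to its symbol in GENCODE M21. All 10 were found among 20446 genes, and all 10 passed the filter on low counts that left 12687 genes to test. The study followed C2C12 myotubes, mouse muscle fibres formed in culture by an established myoblast line, for its question of circadian control in muscle. Myoblasts were grown in fetal bovine serum, differentiated in low horse serum and given a single pulse of concentrated horse serum, which sets the cells' clocks to a common phase. Total RNA was taken every 6 h from 12 h to 60 h, with 3 libraries at each of 9 time points (27 libraries). Every library therefore came from the same line, medium and pulse, and the groups differ only in hours since the pulse; the labels name no culture without it. Nothing in the labels says that the 3 libraries of a time point came from separate cultures, so a p-value here measures only how far these libraries spread, and that spread may be technical.

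Proteins that enter the ER are folded by chaperones and joined by disulfide bonds, and those that fail are sent back to the cytosol for degradation. When unfolded protein builds up, the membrane sensors IRE1, ATF6 and PERK turn on genes for chaperones, disulfide isomerases and degradation factors. IRE1 acts by splicing Xbp1 mRNA, and ATF6 is cut in the Golgi to free its transcription factor. Muscle cells use this machinery as they fuse into myotubes and build membrane, receptors and secreted matrix. Counts per gene do not separate spliced from unspliced Xbp1 mRNA, so they show how much Xbp1 RNA there was and not how much of it was spliced.

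In GENCODE M21 on mm10 the members lie apart from one another, on 9 chromosomes, and Pdia4 and Edem1 share chromosome 6. On the plus strand are Hspa5 (ENSMUSG00000026864) at chr2:34771970-34777547, Xbp1 (ENSMUSG00000020484) at chr11:5520659-5525893, Herpud1 (ENSMUSG00000031770) at chr8:94386438-94395377, Creld2 (ENSMUSG00000023272) at chr15:88819646-88826683 and Edem1 (ENSMUSG00000030104) at chr6:108828641-108859356. On the minus strand are Hsp90b1 (ENSMUSG00000020048) at chr10:86690209-86705509, Pdia4 (ENSMUSG00000025823) at chr6:47796141-47813430, Manf (ENSMUSG00000032575) at chr9:106838312-106891979, Sdf2l1 (ENSMUSG00000022769) at chr16:17130138-17132383 and Dnajb9 (ENSMUSG00000014905) at chr12:44205559-44210326. These spans are whole genes, exons and introns together, and the table gives 1 count per gene.

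Several of these genes carry the DNA element by which the response is known to act, and the sequences are shown for the members whose window holds it and for Xbp1. The windows are RefSeq promoter sequence on GRCm38.p6, which has entries for 9 of the 10 members and none for Manf. Each line below gives the 250 bases before the annotated start, 5′ to 3′ on the gene's strand. Capitals mark the ER stress response element (ERSE), which is CCAAT, any 9 bases and CCACG, read on either strand. In Herpud1 they mark the related ERSE-II, which is ATTGG, any 1 base and CCACG. They are the windows chr2:34771840-34772089 (plus strand) for Hspa5, chr10:86705445-86705694 (minus) for Hsp90b1, chr15:88819396-88819645 (plus) for Creld2, chr8:94386179-94386428 (plus) for Herpud1 and chr11:5520391-5520640 (plus) for Xbp1.
Hspa5: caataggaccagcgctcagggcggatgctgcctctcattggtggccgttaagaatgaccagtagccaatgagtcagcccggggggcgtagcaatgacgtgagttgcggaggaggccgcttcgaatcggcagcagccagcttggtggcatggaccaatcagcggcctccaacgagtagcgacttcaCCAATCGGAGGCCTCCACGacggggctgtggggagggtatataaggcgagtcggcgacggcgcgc
Hsp90b1: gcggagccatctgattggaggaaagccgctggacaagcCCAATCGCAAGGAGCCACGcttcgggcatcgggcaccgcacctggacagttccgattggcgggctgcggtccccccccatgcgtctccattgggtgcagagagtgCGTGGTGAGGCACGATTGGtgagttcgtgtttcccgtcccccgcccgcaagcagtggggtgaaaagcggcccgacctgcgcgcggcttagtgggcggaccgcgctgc
Creld2: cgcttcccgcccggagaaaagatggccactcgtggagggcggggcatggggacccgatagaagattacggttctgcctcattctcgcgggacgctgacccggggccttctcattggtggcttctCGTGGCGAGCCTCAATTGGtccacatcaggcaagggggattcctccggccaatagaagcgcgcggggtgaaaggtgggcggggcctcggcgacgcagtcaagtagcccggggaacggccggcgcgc
Herpud1: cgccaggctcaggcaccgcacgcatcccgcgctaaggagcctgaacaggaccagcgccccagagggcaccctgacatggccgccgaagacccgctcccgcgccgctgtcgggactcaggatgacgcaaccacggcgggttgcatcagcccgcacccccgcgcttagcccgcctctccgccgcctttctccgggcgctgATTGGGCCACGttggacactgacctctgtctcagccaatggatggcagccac
Xbp1: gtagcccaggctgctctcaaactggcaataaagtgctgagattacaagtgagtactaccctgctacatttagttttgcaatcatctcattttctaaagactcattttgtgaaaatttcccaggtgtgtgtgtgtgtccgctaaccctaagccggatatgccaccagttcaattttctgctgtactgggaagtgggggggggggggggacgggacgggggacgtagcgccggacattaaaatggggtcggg
Motifs were counted on both strands of windows reaching from 250 bases before the start to 50 bases after it. ERSE was found in 3 of the 9 members with a window, and in 0.119% of all 32851 windows of that length. Hspa5 holds 1 copy that begins 65 bases before the start, Creld2 holds 1 on the opposite strand, and Hsp90b1 holds 2, 1 on each strand. ERSE-II was found in Herpud1 and in 0.0365% of all windows. Its core CCACG, which also ends ERSE, occurred in 8 of the 9 members, all but Xbp1, and in 32.8% of all windows. The element TGACGTGG (UPRE), bound by the spliced form of XBP1, was in 0 of the 9 and in 0.676% of all windows. Dnajb9 alone among them held CACGTG, the E-box to which clock factors bind, which 7.15% of all windows hold. These members were chosen as genes of the response, so a match describes the sequence and is neither a site of binding nor a cause of any level given here, and no match says only that these letters are not in the window.

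Depth was 15.2 to 26.6 M counts per library, with a median of 20.9 M. Myotube markers summed to 16413 to 19654 CPM (counts scaled to a common library size, with TMM factors), and 10 of 10 were tested. Markers of dividing or reserve myoblasts summed to 605 to 1037 CPM with 6 of 6 tested, so RNA of both kinds was present; in bulk RNA, fewer cells of a type and less RNA per cell cannot be told apart. Macrophage and endothelial markers stayed at or under 1.98 CPM (1 of 5 tested) and adipocyte markers at or under 0.131 CPM (0 of 4 tested, Cidec at 0 in all libraries). The libraries numbered 2 stood apart from those numbered 1 and 3 at the same hours. With time held fixed, the replicate number passed edgeR's quasi-likelihood test at an adjusted p under 0.05 in 66.1% of all genes tested. Time point passed in 18.5%, or 2345 genes, in a fit that left the number out, so these shares do not come from like fits. With the number as a block, 5158 genes passed for time point. The labels give the number no meaning beyond a replicate. The members' counts over time are therefore given with and without the 9 libraries numbered 2.

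Hspa5 (BiP, the HSP70 chaperone of the ER) and Hsp90b1 (GRP94, its HSP90) were the most abundant members. Hspa5 averaged 1389 CPM over the 27 libraries and Hsp90b1 1305 CPM. To compare genes, levels were also taken per kilobase of exon, counting every annotated exon base of a gene once. That length can exceed the transcript present, so ranks on this scale are approximate. On it Hspa5 and Hsp90b1 led again at 329 ± 38.8 and 324 ± 22.2 CPM per kb (SD, n = 27 libraries), a difference within that spread. Pdia4, a disulfide isomerase with several thioredoxin domains, followed at 141 ± 12.7 CPM per kb. Below it lay the transcription factor Xbp1 at 66.5 ± 5.87 and Herpud1, a membrane organiser of ER-associated degradation, at 61.1 ± 4.01 CPM per kb. Creld2, an ER protein with EGF-like repeats, stood at 55.8 ± 6.61 CPM per kb, so the neighbours from Xbp1 to Creld2 overlapped in their spread. The secreted ER factor Manf stood at 43.0 ± 4.23 CPM per kb. The BiP co-factors and the mannosidase-like protein came last: Sdf2l1 at 26.9 ± 2.47, Edem1, which passes misfolded glycoproteins to degradation, at 16.7 ± 1.43, and Dnajb9, a J-domain partner of BiP, at 15.0 ± 1.44 CPM per kb. The ranges of Edem1 and Dnajb9 over the libraries overlapped, at 14.1 to 19.1 and 12.1 to 17.8 CPM per kb. Manf's annotated span overlaps Rbm15b on the same strand and Dcaf1 on the other, so its level may hold reads of a neighbour, depending on counting options not given in the sources used here.

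The 10 genes varied little. Over all 27 libraries the highest level was 1.26 times the lowest for Herpud1, the narrowest of the members, and 1.59 times for Hspa5, the widest. Between the 9 time point means the span was 1.11-fold for Creld2 to 1.26-fold for Hspa5. The highest time point mean fell at 60 h in 6 of the 10: Hspa5, Hsp90b1, Pdia4, Xbp1, Herpud1 and Manf. Edem1 and Sdf2l1 were highest at 42 h, Dnajb9 at 12 h and Creld2 at 18 h. All 27 levels of each gene and the small size of these moves can be seen in the plot of levels by hour.

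**Figure D1:**
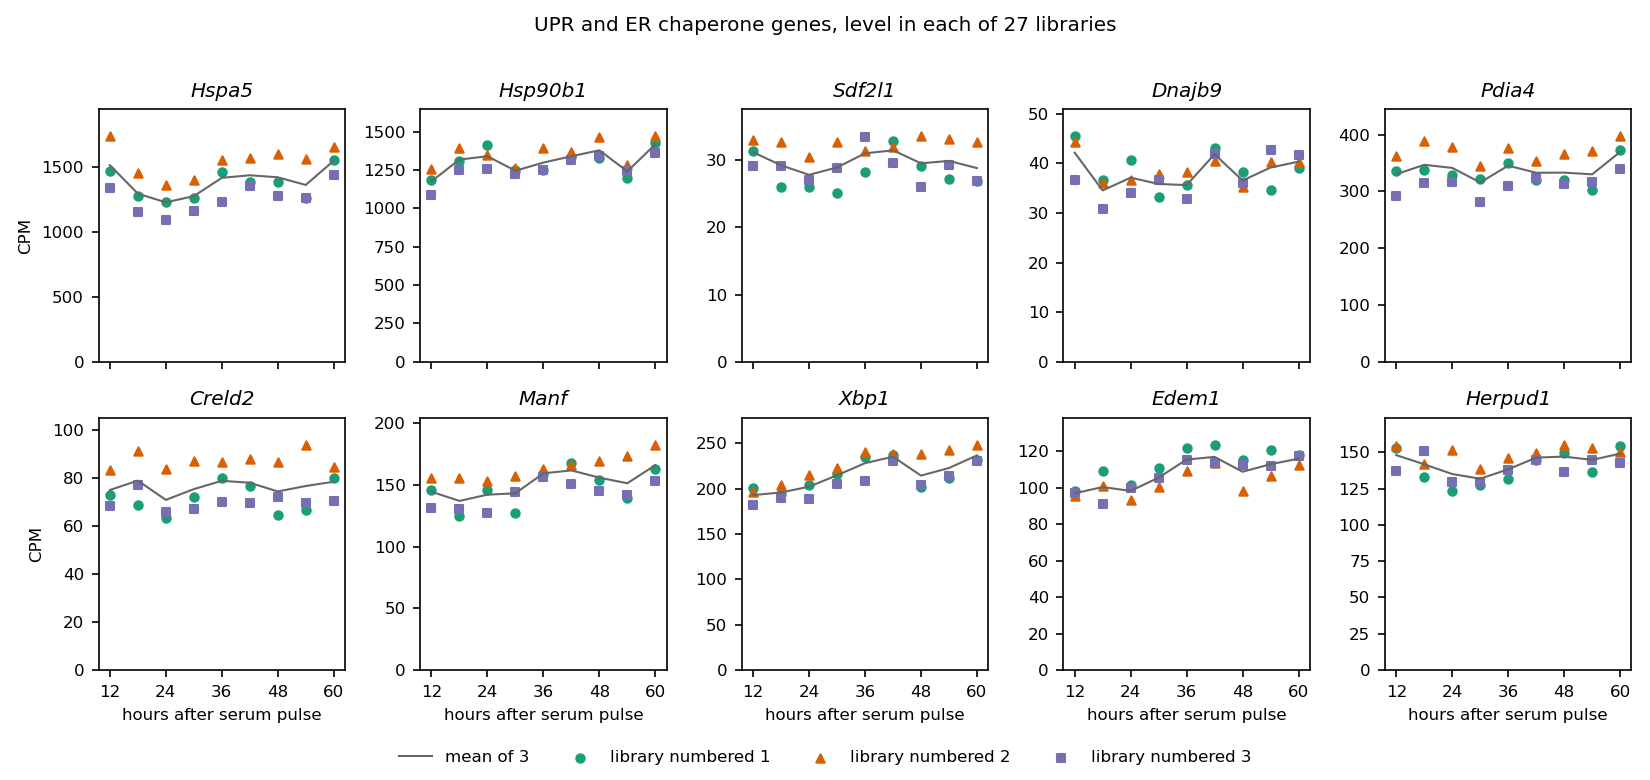
Level of each of the 10 genes (y axis, CPM, starting at 0) by hours after the serum pulse (x axis). Each point is 1 library, with colour and shape giving its replicate number, and the line joins the means of 3 libraries. Xbp1 and Edem1 climb slightly between 24 h and 42 h, and orange triangles (libraries numbered 2) lie highest at all 9 hours for Hspa5, Pdia4 and Creld2.

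Xbp1 rose over the course. At 12 h its 3 libraries, in the order of their numbers, stood at 201, 196 and 182 CPM, a mean of 193 ± 9.98 (SD, n = 3). By 36 h they stood at 235, 241 and 209 CPM (228 ± 17.1) and at 60 h at 231, 248 and 230 CPM (237 ± 10.2). Every library of 36 h and of 60 h lay above every library of 12 h, while those of 36 h and 60 h overlapped. The log2 change from 12 h to 60 h was 0.30 ± 0.07 (SE), a 1.23-fold rise, with an edgeR adjusted p of 0.00671; it was higher in 3 of 3 numbers. From 12 h to 36 h it was 0.24 ± 0.07 (adjusted p = 0.0264), a comparison that shares its 12 h libraries with the first. Between 36 h and 60 h the change was 0.05 ± 0.07 (adjusted p = 0.998).

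Edem1, a target of the IRE1 and XBP1 branch, rose as well. Its libraries held 98.1, 95.6 and 96.9 CPM at 12 h (96.9 ± 1.25), 122, 109 and 115 CPM at 36 h (115 ± 6.14) and 118, 112 and 117 CPM at 60 h (116 ± 3.05). No library of 36 h or 60 h reached down to those of 12 h. The log2 change was 0.26 ± 0.07 from 12 h to 60 h (edgeR adjusted p = 0.0157), 0.25 ± 0.07 from 12 h to 36 h (0.0184) and 0.01 ± 0.07 from 36 h to 60 h (0.998). Its mean stayed between 96.9 and 105 CPM through 30 h and between 109 and 117 CPM from 36 h on.

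Hsp90b1 was lowest at 12 h, with 1184, 1255 and 1087 CPM (1175 ± 84.3, n = 3). At 18 h it held 1309, 1393 and 1250 CPM, and at 60 h 1423, 1468 and 1359 CPM (1417 ± 54.6). All 3 libraries of 60 h lay above all 3 of 12 h. The log2 change from 12 h to 60 h was 0.27 ± 0.06 with an edgeR adjusted p of 0.0046, and from 12 h to 36 h 0.14 ± 0.06 (adjusted p = 0.150), where the groups overlapped. Its path was not a steady climb: the mean dropped to 1244 CPM at 30 h and to 1240 CPM at 54 h, between higher values at 24 h and 48 h (1339 and 1378 CPM).

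Markers of other cell states moved over the same hours. Summed markers of dividing or reserve myoblasts stood at 605 to 679 CPM in the 12 h libraries, at 719 to 818 CPM at 36 h and at 708 to 735 CPM at 60 h, so those of 12 h lay below both later hours, as for Xbp1 and Edem1; the highest sums, 758 to 1037 CPM, were at 18 h. Most of each sum came from Top2a, Mki67 and Cdk1, which averaged 379, 209 and 100 CPM over all libraries. Myf5 averaged 28.8 and Pax7 1.37 CPM, so the sums say little of those 2. From 12 h, 2 of the 6 markers had risen and 0 fallen both by 36 h and by 60 h. Along the trend 0 passed with edgeR, with Mki67 at an adjusted p of 0.239, Ccnb1 at 0.210 and Top2a at 0.882. Mki67, a protein of dividing cells, averaged 166 ± 5.65 CPM in the 12 h libraries, then 224 ± 8.97 by 36 h (edgeR adjusted p = 0.00687) and 212 ± 11.9 by 60 h (0.0284). Ccnb1, a mitotic cyclin, went from 15.04 ± 3.25 to 25.3 ± 5.72 (0.00901) and 23.6 ± 0.927 CPM (0.0241). Top2a, a topoisomerase of dividing cells, passed for any change (0.00136) with its highest mean, 501 ± 91.2 CPM, at 18 h. Of the 10 myotube markers 1 rose and 1 fell along the trend. Myog, the factor that drives differentiation, fell: it averaged 744 ± 11.4 CPM in the 12 h libraries, 544 ± 9.85 by 36 h and 420.4 ± 30.1 by 60 h, a trend of -0.91 ± 0.06 (adjusted p = 7.05e-11). Myh3, embryonic myosin, rose by 0.30 ± 0.08 (0.00979), and Acta1, skeletal actin, did not pass for any change (0.448). Neither did Cd68 (0.991) or Runx2 (1.00), the tested markers of macrophages and osteoblasts. The part of these markers in the members' changes was not tested.

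Hspa5 followed another path. It began high at 12 h with 1473, 1736 and 1336 CPM (1515 ± 203), stood lower at 24 h with 1232, 1363 and 1091 CPM (1228 ± 136), and returned to 1554, 1657 and 1438 CPM at 60 h (1550 ± 110). Within each number the level at 24 h was below that at 12 h, by log2 changes of -0.26, -0.35 and -0.29 in the libraries numbered 1, 2 and 3, although the ranges of the 2 hours overlapped across numbers. The test for change of any shape did not pass (edgeR adjusted p = 0.389), and neither did 60 h against 12 h, at 0.03 ± 0.12 (adjusted p = 0.915). The 3 libraries of an hour were far apart, as the SDs show, and these tests left the replicate number out. With the number as a block, a pairing the labels do not give, Hspa5 passed for any change and along the trend, as the closing section states. Dnajb9 also began high, with 45.4, 44.4 and 36.7 CPM at 12 h against 35.7, 38.3 and 32.8 CPM at 36 h. Its groups overlapped, and the log2 change of -0.24 ± 0.09 had an adjusted p of 0.0850; without the third library of 12 h it was -0.34 with an adjusted p of 0.0186.

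Manf, whose protein protects cells from ER stress, held 146, 156 and 132 CPM at 12 h (145 ± 12.3), 159, 164 and 157 CPM at 36 h (160 ± 3.51) and 163, 183 and 153 CPM at 60 h (166 ± 15.1). Its 36 h libraries lay above those of 12 h, while those of 60 h overlapped them, and neither comparison passed (edgeR adjusted p = 0.424 and 0.224). Pdia4 ranged from 281 to 397 CPM over the course, Herpud1 from 123 to 155, Creld2 from 63.1 to 93.8 and Sdf2l1 from 25.2 to 33.6 CPM. None of these 4 passed for any change, with edgeR adjusted p of 0.554 or more, in the fit without the replicate number. Pdia4 and Manf passed for any change with the number as a block. Sdf2l1, which works beside BiP, showed a log2 change of -0.11 ± 0.12 from 12 h to 60 h, and Creld2 one of 0.07 ± 0.15.

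Counted over the 10, 2 passed the test for change of any shape, Xbp1 (edgeR adjusted p = 0.0186) and Edem1 (0.0203), beside 18.5% of all genes tested. That test, like the others counted here, left the replicate number out. With the number as a block, a pairing the labels do not give, 7 of 10 passed for any change, beside 5158 of 12687 genes. Hspa5, Hsp90b1, Manf, Pdia4 and Dnajb9 were the members added. DESeq2 (adjusted p = 0.00555) and limma-voom (just under the threshold) also called Hsp90b1, 3 members in all. From 12 h to 60 h, 3 rose and 0 fell, where 9.5% of all genes rose and 6.56% fell. The same 3, Xbp1, Hsp90b1 and Edem1, were the members whose 60 h libraries all lay above the 12 h libraries, as 16.7% of all genes did. Against 12 h the 36 h libraries all lay above for Xbp1, Edem1 and Manf (14.5% of all genes), and Dnajb9 was the member whose 60 h libraries all lay above those of 36 h (6.43%). From 12 h to 36 h, 2 rose and 0 fell (background 9.3% and 6.75%), and from 36 h to 60 h 0 of 10 passed (background 0.859%). That last count was also 0 with an unadjusted p under 0.05; DESeq2 gave 0 calls and 1 at an unadjusted p under 0.05, and limma-voom gave 0 calls. The median log2 change of the 10 was 0.11 from 12 h to 60 h, 0.07 from 12 h to 36 h and 0.08 from 36 h to 60 h, beside -0.01, -0.01 and 0.00 over all genes tested. Whether the second day's change differed from the first was tested as a contrast of its own, and 0 of 10 passed with edgeR (background 6.76%), with Dnajb9 at an unadjusted p of 0.0170.

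Along a straight line through all 9 hours, fitted beside a 24 h wave, 4 members rose and 0 fell (background 10.7% and 8.72%). Per 48 h the log2 trend was 0.28 ± 0.06 for Xbp1 (edgeR adjusted p = 0.00103), 0.28 ± 0.06 for Edem1 (8.37e-04), 0.24 ± 0.08 for Manf (0.0211) and 0.17 ± 0.05 for Hsp90b1 (0.0215). The fitted trends of the other 6 ran from 0.01 to 0.15 and did not pass. The median of the 10 was 0.12, beside -0.01 over all genes tested. In the fit without the 12 h libraries 0 members passed: Xbp1 stood at 0.22 (adjusted p = 0.0654), Edem1 at 0.23 (0.0664), Manf at 0.27 (0.0809) and Hsp90b1 at 0.13 (0.270). All 4 calls were thus lost without that hour, and 6 of 10 members had an unadjusted p under 0.05 there with edgeR. Over all genes, calls along the trend went from 2466 to 1184 without that hour, and 2733 genes had an unadjusted p under 0.05. Without the libraries numbered 2, Xbp1 (0.25, adjusted p = 0.0142), Edem1 (0.30, 0.00468) and Manf (0.24, 0.0373) still passed and Hsp90b1 did not (0.17, 0.0688). Over all genes, 1086 rose and 814 fell along the trend without them. For any change 1492 genes then passed and 3005 had an unadjusted p under 0.05, and 908 rose from 12 h to 60 h. On those 18 libraries 0 members passed for any change (edgeR, 5 at an unadjusted p under 0.05), with Xbp1 at an adjusted p of 0.0703 and Edem1 at 0.105, and from 12 h to 60 h Xbp1 (0.0313) and Hsp90b1 (0.0171) passed and Edem1 did not (0.0547).

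**Figure D2:**
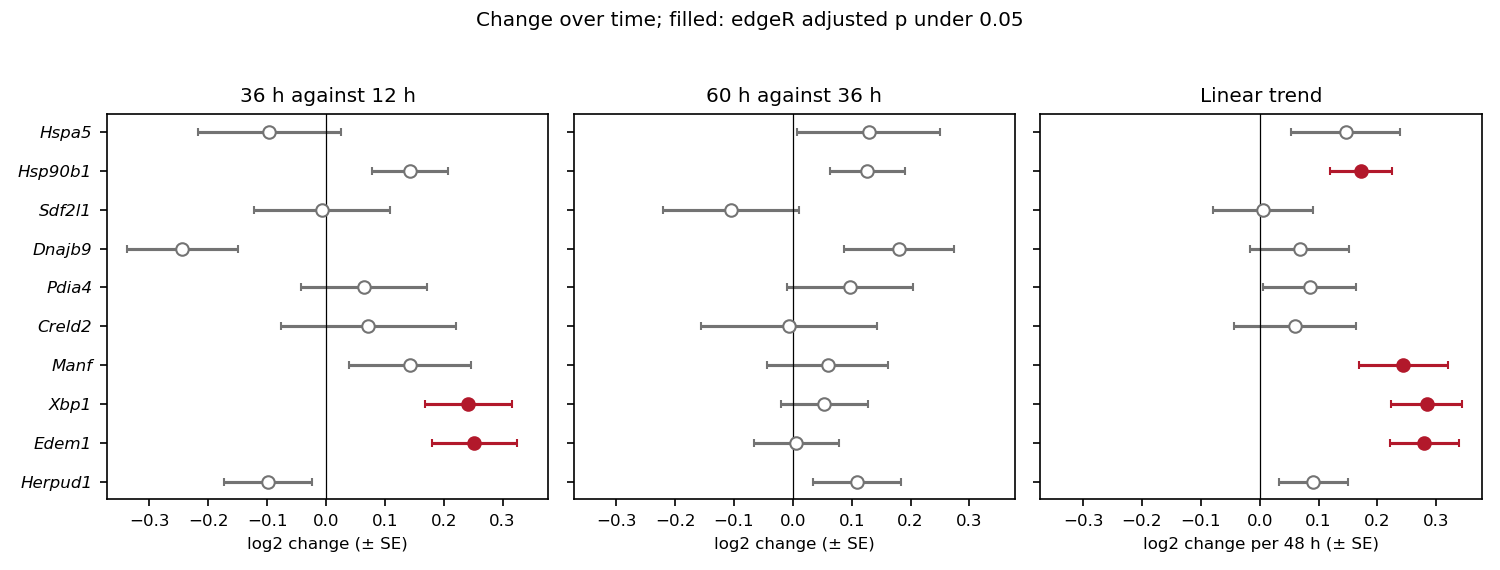
Log2 change of each gene (x axis, with SE bars) from 12 h to 36 h, from 36 h to 60 h, and per 48 h along the linear trend, 10 genes on the y axis. Filled red points passed edgeR's test at an adjusted p under 0.05: 2, 0 and 4 genes, all to the right of 0.

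Leaving out single libraries ended some of these calls. The trend count fell from 4 to 2 without library 3 of 12 h, where Manf had an adjusted p of 0.0600 and Hsp90b1 0.0875, and without library 2 of 60 h (0.0608 and 0.0749). Hsp90b1 alone was lost along the trend without library 1 of 12 h (0.0542) or library 1 of 60 h (0.0654). From 12 h to 60 h Edem1 was lost without any of the 3 libraries of 12 h or libraries 1 or 3 of 60 h, with adjusted p of 0.0520 to 0.0800. From 12 h to 36 h 0 members passed without library 2 of 12 h, library 1 of 36 h, or, counting rises, library 3 of 12 h, and 1 passed without library 1 of 12 h or libraries 2 or 3 of 36 h. For change of any shape Edem1 was lost without any of 11 libraries, with adjusted p up to 0.0759: all 3 of 12 h, library 2 of 18 h, libraries 2 and 3 of 24 h, library 1 of 36 h, library 1 of 42 h, library 3 of 54 h and libraries 1 and 3 of 60 h. Hsp90b1 passed that test without library 2 of 12 h, library 3 of 18 h or 24 h, or library 2 of 36 h, at 0.0406 to 0.0432. Xbp1 kept its calls for any change, the trend and 60 h against 12 h without each library in turn.

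The study set out to follow circadian control, and the 24 h wave was tested for each gene beside its trend. None of the 10 passed (0 of 10, beside 0.0552% or 7 of all genes tested), and 2 of 10 had an unadjusted p under 0.05 with edgeR, as with DESeq2 and limma-voom, which also made 0 calls. Those 2 were Hsp90b1, with a peak-to-trough log2 swing of 0.15 ± 0.05 (adjusted p = 0.904) and a fitted peak 19.6 h into the 24 h cycle counted from the pulse, and Hspa5, with a swing of 0.21 ± 0.08 (adjusted p = 1.00) and a peak at 13.6 h. Without the 12 h libraries 0 of 10 had an unadjusted p under 0.05 for the wave. The swings of the other 8 ran from 0.08 to 0.11, and the median of 0.11 over the 10 stood beside 0.10 over all genes tested. A pattern alternating between successive collections, with 12, 24, 36, 48 and 60 h against 18, 30, 42 and 54 h, passed in 0 of 10 (background 1.17%), with 0 at an unadjusted p under 0.05 by edgeR, DESeq2 or limma-voom. Without the libraries numbered 2, 0 members passed for the wave (edgeR, 2 at an unadjusted p under 0.05), for the alternation or from 36 h to 60 h (0 at an unadjusted p under 0.05 for both). The log2 differences of the alternation, over all libraries, ran from -0.04 for Creld2 to 0.06 for Hspa5.

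The members differed between the replicate numbers. In the test of replicate number, with time held fixed, 9 of 10 passed, all but Dnajb9, beside 66.1% of all genes. The contrast of number 2 with numbers 1 and 3 was chosen after the levels had been seen, and its values are given as a description. Hspa5 averaged 1545 CPM over the 9 libraries numbered 2, against 1366 and 1257 CPM over those numbered 1 and 3, and its library 2 was the highest of the 3 at 9 of 9 hours. Pdia4 averaged 371 CPM against 332 and 312, and Creld2 87.1 CPM against 71.6 and 69.9; both were highest in library 2 at 9 of 9 hours. The log2 difference of number 2 from the other two was 0.30 ± 0.03 for Creld2, 0.24 ± 0.02 for Hspa5, 0.21 ± 0.02 for Pdia4, 0.19 ± 0.04 for Sdf2l1 and 0.18 ± 0.03 for Manf. It was smaller for Xbp1 (0.11 ± 0.02), Herpud1 (0.10 ± 0.03) and Hsp90b1 (0.09 ± 0.02). Edem1 went the other way at -0.09 ± 0.03: it averaged 113 CPM in number 1, 103 in number 2 and 107 in number 3, and was highest in number 1 at 9 of 9 hours. Herpud1 did not pass the test of replicate number without library 2 of 24 h (adjusted p = 0.0976).

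**Figure D3:**
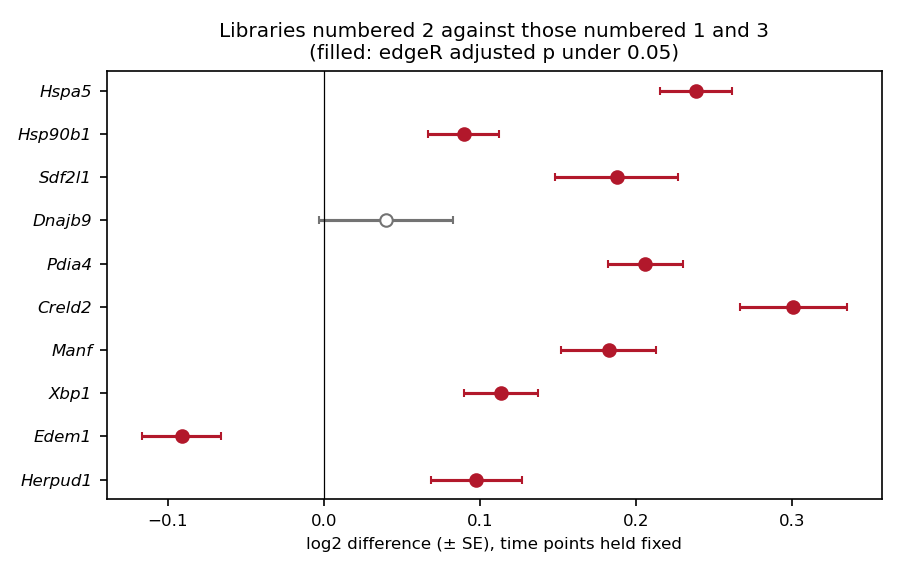
Log2 difference between the 9 libraries numbered 2 and the 18 numbered 1 and 3, time points held fixed (x axis, with SE bars), for the 10 genes (y axis). Creld2 and Hspa5 lie farthest right at 0.30 and 0.24, and Edem1 is the gene to the left of 0.

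Some other measures differed with the number, and their part in these differences was not tested. Depth overlapped between numbers: it was 15.2 to 26.6 M counts in number 2, 18.5 to 25.1 M in number 1 and 19.3 to 23.8 M in number 3. The 5 osteoblast markers, of which Runx2 alone passed the filter, summed to 5.41 to 9.30 CPM in number 2, to 8.38 to 16.6 in number 1 and to 10.4 to 14.1 in number 3, while Bglap, Sp7, Ibsp and Alpl were each under 0.15 CPM on average. Sums of dividing and reserve myoblast markers overlapped, with medians of 757 CPM in number 2, 709 in number 1 and 719 in number 3. Sums of myotube markers overlapped between numbers as well (16485 to 17673 CPM in number 2, 16413 to 18578 in number 1 and 16946 to 19654 in number 3). Macrophage and endothelial markers were near 0 in every number, at 0.780 to 1.98 CPM. Most of the sensors had the opposite sign: log2 differences of number 2 were -0.24 for Ern1 (IRE1), -0.24 for Atf6, -0.42 for Atf6b, -0.87 for Creb3l1 and -0.72 for Creb3l2, while Creb3 stood at 0.24. Among the 13 other disulfide isomerases and oxidases 9 were higher and 1 lower, and among 9 sensors and ATF6 proteases 1 was higher and 6 lower, beside 31.8% and 28.9% of all genes. More genes were higher than lower in the remaining pathway lists too. The counts were 8 and 3 of 14 other ER chaperones, 8 and 4 of 18 degradation genes, and 9 and 3 of 18 translocation and export genes. They were 4 and 2 of 9 PERK branch genes, and 7 and 1 of 12 other heat shock genes, most of them outside the ER.

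The members also varied together from library to library. With each hour's mean removed, Pearson's r between log2 CPM of 2 members had a median of 0.58 over the 45 pairs, and was 0.96 for Hspa5 and Pdia4 (27 libraries, which share depth, scaling and the numbering above). The 36 pairs without Edem1 had a median of 0.67 and ran from 0.13 to 0.96, and the 9 pairs with Edem1 ran from -0.73 to 0.08. The 6 genes outside the lists whose course over the 27 libraries was most like the members' mean z-score were Anxa3, Mgat2, Cers5, Sec13, Uba2 and Wdr43, with r of 0.94 down to 0.89. Over the 9 time point means the same 6 had r of 0.82 to 0.94, and with each hour's mean removed r of 0.92 to 0.97. The 6 were picked on all 27 libraries, differences within an hour included, so the r within hours is a description and no separate support. None of the 6 passed for any change (edgeR adjusted p of 0.156 or more). Anxa3 encodes an annexin, Mgat2 a Golgi enzyme of N-glycan building, Cers5 a ceramide synthase and Sec13 a coat protein of vesicles leaving the ER.

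Other genes of the pathway were read from lists, giving for each how many passed along the trend, where 10.7% of all genes tested rose and 8.72% fell. Of 18 genes of translocation into the ER and export from it, 9 rose and 0 fell. Sec61a1, the channel through which new proteins enter, averaged 307 ± 14.7 CPM at 12 h. It stood at 398 ± 2.95 CPM at 42 h and 366 ± 12.8 at 60 h, with a trend of 0.33 ± 0.07 (edgeR adjusted p = 5.37e-04). Surf4, a receptor for export cargo, rose by 0.24 ± 0.04 (2.38e-04), and Kdelr2, which returns ER residents from the Golgi, by 0.26 ± 0.07 (0.00654). Of 13 other disulfide isomerases and oxidases 6 rose and 0 fell, among them P4hb (0.31 ± 0.07, adjusted p = 0.00164) and Txndc11 (0.29 ± 0.05, 1.36e-04). Ero1a, the oxidase that recharges disulfide isomerases, did not pass along the trend (-0.26 ± 0.12, 0.125) but fell from 59.7 ± 2.84 CPM at 12 h to 39.7 ± 3.88 at 36 h (adjusted p = 4.47e-05).

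The other chaperones and degradation factors are read against the same 10.7% and 8.72% of all genes. Among 14 other ER chaperones and cochaperones 1 rose along the trend and 1 fell: Dnajc1 by 0.21 ± 0.05 (edgeR adjusted p = 0.00679) and Cdnf, the relative of Manf, by -0.38 ± 0.10 (0.00937). Calr, the lectin chaperone calreticulin, did not pass along the trend (0.07 ± 0.06, 0.512), although it was 0.23 ± 0.06 higher at 60 h than at 12 h (0.00759). Of 18 tested genes of ER-associated degradation 1 rose, Selenos (0.36 ± 0.07, 3.33e-04), and 0 fell; Rnf139 and Man1b1 did not pass for any change (0.486 and 0.521). A list of 12 other heat shock genes held the cytosolic HSP70 and HSP90 system, the small heat shock protein Hspb1 and the mitochondrial chaperonins Hspd1 and Hspe1. Along the trend 0 of the 12 rose and 2 fell, named here after their values were seen: Hsp90ab1, the constitutive cytosolic HSP90, by -0.20 ± 0.07 (0.0299) and Hspe1 by -0.33 ± 0.11 (0.0418). Hspd1 averaged 233 ± 25.6 CPM at 12 h, 146 ± 5.74 CPM at 24 h and 161 ± 5.55 CPM at 60 h, with a change of -0.53 ± 0.07 from 12 h to 60 h (3.17e-06). Hsph1 changed by -0.27 ± 0.07 over the same hours (0.0123), and Hspa1b by -0.18 ± 0.12 (0.373).

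Of 9 sensors and proteases that release ATF6, 1 rose along the trend and 0 fell (background 10.7% and 8.72%). That gene was Eif2ak3, which encodes PERK, with 31.7 ± 1.36 CPM at 12 h and 39.6 ± 1.33 CPM at 60 h (0.31 ± 0.07, edgeR adjusted p = 0.00127); Mbtps1 and Mbtps2, the ATF6 proteases, did not pass for any change (0.460 and 0.894). Of 9 genes of the PERK branch 6 passed for any change (background 18.5%), and along the trend 2 rose and 0 fell. Atf4, its transcription factor, averaged 378 ± 5.02 CPM at 12 h, 281 ± 10.1 CPM at 24 h and 429 ± 14.4 CPM by 60 h (trend 0.44 ± 0.08, 1.24e-04). Trib3, a target of ATF4, had 40.5 ± 4.36 CPM at 12 h, 10.9 ± 2.65 CPM at 24 h and 25.8 ± 2.37 CPM by 60 h (any change, 7.92e-08). Ddit3 (CHOP), a factor linked to cell death under lasting stress, stood at 35.0 ± 4.81 CPM at 12 h and 20.8 ± 3.89 CPM at 24 h (any change, 4.69e-04), and its 60 h mean of 37.9 CPM was close to the first. The low point at 24 h was thus shared by Atf4, Trib3 and Ddit3. Among the members Hspa5, Creld2 and Sdf2l1 had their lowest means there as well, without passing for any change in the main test. The other members had theirs at 12, 18 or 30 h.

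**Figure D4:**
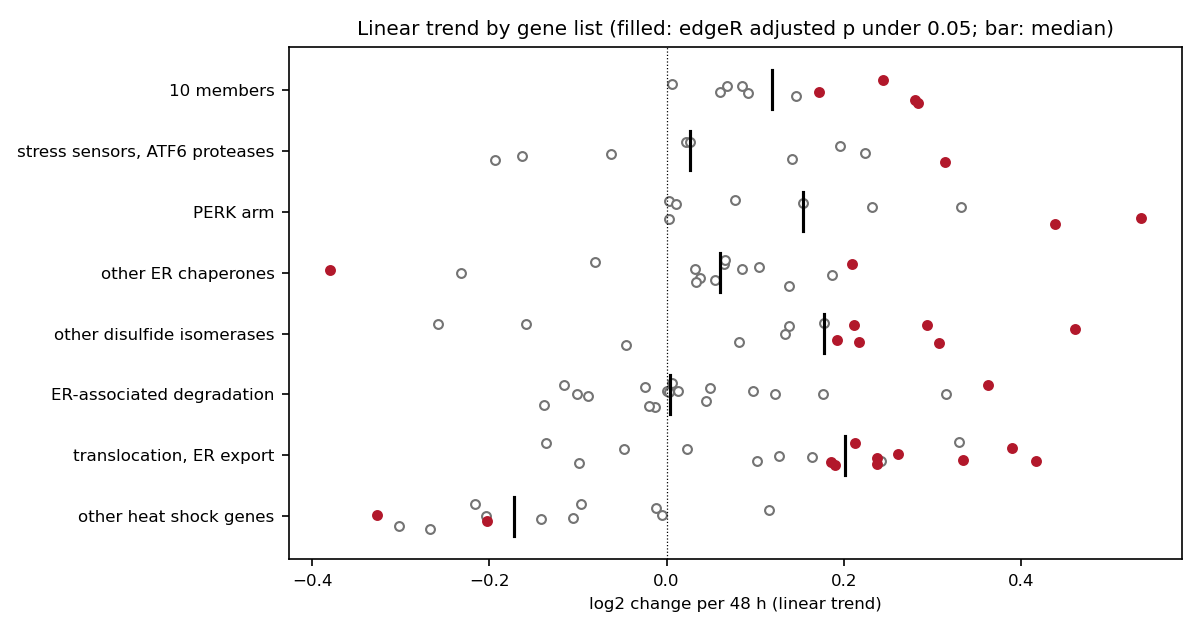
Log2 change per 48 h along the linear trend (x axis) for each tested gene of 8 lists (y axis, points spread vertically for sight), with filled red points for an edgeR adjusted p under 0.05 and a black bar at each list's median. The 4 filled members lie between 0.17 and 0.28, and the translocation and export list has its median at 0.20 with 9 filled points.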

How the data were processed

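RNA of C2C12 myotubes was sequenced at 9 time points with 3 libraries each. What the authors deposited is a matrix of unnormalized read counts, whole numbers per Ensembl gene and library. The submitters' processing notes name Trim Galore 0.4.0, cutadapt 1.9.1, featureCounts and mm10; an aligner, annotation and strand setting were not given in the sources used here. GENCODE M21 named 20318 of 20446 genes, and 2 listed genes (Ero1a and Ero1b) were matched through older symbols.

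Libraries were grouped by the hour and number in their titles. Genes passing edgeR's filterByExpr (minimum count 10) were scaled by TMM (factors 0.979 to 1.03). The main test was edgeR's quasi-likelihood test over all 27 libraries, with Benjamini-Hochberg adjustment over 12687 genes and a threshold of 0.05. Time was a factor, or a line with cosine and sine of 24 h. The test was also run on simulated data. Those data held replicate number differences only in genes altered for that purpose, unlike the real libraries, so its error rates there need not hold here. Versions were R 4.3.3, edgeR 4.0.16, DESeq2 1.42.0 and limma 3.58.1. Log2 CPM used a prior count of 2. Alternatives were DESeq2, limma-voom, other filters, scalings, thresholds and periods, a replicate block and left-out libraries. Tests of replicate number were added after the data were seen. The members and lists were chosen with earlier results of these data known. From each other list up to 3 tested genes with the smallest p for any change were named; the sensors named by replicate number were chosen after their values were seen.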

Additional observations from a re-analysis of the deposited data

Results flagged for a closer look

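None of the 10 members had a change from 36 h to 60 h that differed from its change from 12 h to 36 h (0 of 10, edgeR's quasi-likelihood test of the difference, background 6.76% of all genes tested; 1 of 10 at an unadjusted p under 0.05). Among the genes named from the other lists, 4 did. Those genes were named for their small p for any change in these same data, so this count cannot be set against the background. Trib3, a target of ATF4, changed by -0.98 on the log2 scale from 12 h to 36 h and by 0.33 from 36 h to 60 h, and the difference of the 2 was 1.30 ± 0.26 (adjusted p = 0.00217). Ero1a, the ER oxidase, changed by -0.59 and then by 0.13, a difference of 0.72 ± 0.16 (0.00491). Hspd1, the mitochondrial chaperonin, changed by -0.60 and then by 0.06, a difference of 0.66 ± 0.12 (6.62e-04). Kdelr2 moved the other way, by 0.34 and then by -0.08, a difference of -0.42 ± 0.11 (0.0219). Both changes share the 36 h libraries, so a high or low value at that hour enters both with opposite sign. For all 4 genes the first change passed its own test and the second did not.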

How the results depend on the processing

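Of the members' values under all alternatives, 3179 stayed on the same side of the threshold, 54 lost a call, 17 gained one, and no called value changed sign. Values that were not called could change sign. For Hspa5 from 12 h to 60 h the log2 change went from 0.03 to -0.06 without library 3 of 12 h. An adjusted p under 0.01 left 1529 genes for any change with 0 members, 1250 from 12 h to 60 h, 1279 from 12 h to 36 h with 0 members rising, 46 from 36 h to 60 h, 1455 along the trend with 2 members rising, and 63 for alternation. DESeq2 called 184 genes from 36 h to 60 h and 11 for the rhythm, and a 20 h period called 0. Without the libraries numbered 2, 1492 genes passed for any change with 0 members, 1 member rose from 12 h to 36 h, and 33 and 57 genes passed from 36 h to 60 h and for alternation. Without the 12 h libraries 1197 genes passed for any change and 1184 along the trend, with 0 members in either. The 6 libraries of the compared hours alone gave 1138 genes from 12 h to 36 h with 0 members rising, and 17 from 36 h to 60 h; fewer samples then set the spread. Leaving out each library in turn gave 1 to 3 members for any change, 0 to 2 rising and 0 to 1 falling from 12 h to 36 h, 2 to 4 rising along the trend, 47 to 125 genes from 36 h to 60 h and 94 to 160 for alternation. The cause of these differences was not tested.

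The replicate numbers were checked for pairing: deviations of same-numbered libraries correlated at over 0.1 in 20, 36 and 35 of 36 pairs for numbers 1, 2 and 3 (lowest -0.06, 0.31 and 0.05), and 8, 9 and 9 of 9 libraries were closest to their own number. That is a hint that numbers go together, from the data and not the design; since the labels give the number no meaning and not every pair passed 0.1, the pairing was not adopted. With the number as a replicate block, 5158 genes and 7 members passed for any change (Hspa5 at an adjusted p of 8.74e-06, Hsp90b1, Manf, Pdia4 and Dnajb9 beside Xbp1 and Edem1). It gave 3782 genes with 5 members rising from 12 h to 60 h. From 12 h to 36 h it gave 3839 genes, with 3 members rising and 1 falling. It gave 395 genes from 36 h to 60 h, 3894 along the trend with 5 members rising (Hspa5 added, edgeR adjusted p = 0.0303), and 471 for alternation. The lowest count of a member in any library was 493 reads (Sdf2l1).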
